A study of Mus musculus with 16 samples.

Results

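The genes described here are those of the unfolded protein response and the amino acid stress response, measured in cultured mouse hepatocytes on Illumina bead arrays. Of 40 genes chosen by symbol, 37 had a probe named for them, and 30 of these were detected (detection p-value under 0.01) on at least 2 of the 16 arrays, out of 7746 genes that passed the same filter. The 30 fall into an ER list of chaperones and degradation factors (11 measured of 19) and an ATF4-type list of amino acid response genes (19 measured of 21). The probes of Calr, Canx, Dnajc3, Manf, Hyou1, Atf6 and Psph were detected on 0 arrays, and Dnajb9, Dnajb11 and Cebpg had no probe named for them.

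The cells were primary hepatocytes of C57BL/6 mice aged 6 to 8 weeks. They carried an adenovirus with shRNA against both Hdac4 and Hdac5 (shHDAC45 cells) or a control adenovirus, which the sample titles call GFP and the design text shGFP (GFP cells). Each kind of cell received forskolin, which activates adenylyl cyclase and so raises cAMP as glucagon does, or the solvent DMSO, for 2 h or 4 h. That made 8 groups of 2 arrays: shHDAC45 with forskolin at 2 h and 4 h, shHDAC45 with DMSO at 2 h and 4 h, GFP with forskolin at 2 h and 4 h, and GFP with DMSO at 2 h and 4 h. All groups were infected and cultured, and uninfected cells were not analysed here. Nothing in the labels tells if both arrays of a group are separate cultures or mice, and the p-values below therefore reflect array-to-array spread that could be technical in part or whole.

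Secretory cells such as hepatocytes fold large amounts of plasma protein in the endoplasmic reticulum (ER). When unfolded protein gathers there, the sensors IRE1 and ATF6 raise chaperones and degradation factors, IRE1 by splicing Xbp1 mRNA, and the sensor PERK phosphorylates the initiation factor eIF2-alpha. The kinase GCN2 phosphorylates the same factor when amino acids are scarce, and translation of ATF4 then rises, which drives genes of amino acid uptake and synthesis as well as Ddit3 (CHOP) and Trib3.

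Promoter sequences of both lists are shown first, because the lists differ in the letters known as the docking sites of these factors. Windows from 250 bases before to 50 bases after the annotated start were taken from RefSeq (GRCm38.p6) and were given for 36 of the 40 genes and for 27025 genes in all. The ER stress response element, read here as CCAAT and CCACG separated by 9 bases on either strand, stood in the windows of 8 of 16 ER genes (50%), 0 of 20 ATF4-type genes and 0.137% of all genes. The 8 were Hspa5, Hsp90b1, Calr, Canx, Pdia6, Dnajc3, Syvn1 and Creld2. Stretches around the element are given for 3 of them, the lead chaperone and a pair of genes whose signal changed under forskolin or knockdown, with both CCAAT and CCACG in capitals. Hspa5 lies on the plus strand (chr2:34771980-34772088, 110 to 2 bases before the start), as do Creld2 (chr15:88819475-88819583, 171 to 63 bases before the start, with the element on the opposite strand) and Syvn1 (chr19:6046487-6046575, 89 to 1 bases before the start).
Hspa5: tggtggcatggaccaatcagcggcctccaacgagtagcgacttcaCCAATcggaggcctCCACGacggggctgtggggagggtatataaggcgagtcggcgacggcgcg
Creld2: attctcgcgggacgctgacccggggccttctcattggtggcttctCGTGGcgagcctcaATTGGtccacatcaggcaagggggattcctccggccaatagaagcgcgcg
Syvn1: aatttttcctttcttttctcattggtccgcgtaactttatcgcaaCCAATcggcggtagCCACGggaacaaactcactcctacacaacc

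The amino acid response element, read as TGATGNAA on either strand, stood in the windows of 7 of 20 ATF4-type genes (35%), 1 of 16 ER genes (6.25%) and 4.51% of all genes. The 7 were Trib3, Asns, Chac1, Slc7a11, Vldlr, Nupr1 and Aars, and the ER gene was Herpud1. The form TTGCATCA, which is TGATGCAA on the other strand and so overlaps the first count, stood in 5 of 20 ATF4-type genes, 1 of 16 ER genes and 1.03% of all genes. The windows of 5 genes that carry the element are shown, 4 for the largest changes of the ATF4-type list or as its textbook case (Asns), and Herpud1 as the single ER gene. Elements are in capitals, and Slc7a11 holds a pair of them. The stretches are Nupr1 (chr7:126625528-126625625, minus strand, 155 to 58 bases before the start), Slc7a11 (chr3:50443614-50443724, minus strand, 111 to 1), Asns (chr6:7693210-7693277, minus strand, 68 to 1), Chac1 (chr2:119351004-119351101, plus strand, 238 to 141) and Herpud1 (chr8:94386272-94386369, plus strand, 157 to 60).
Nupr1: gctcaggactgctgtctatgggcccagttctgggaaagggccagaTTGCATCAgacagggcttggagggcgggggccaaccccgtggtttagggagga
Slc7a11: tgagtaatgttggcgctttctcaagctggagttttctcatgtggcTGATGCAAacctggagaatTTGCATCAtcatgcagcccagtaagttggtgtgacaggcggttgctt
Asns: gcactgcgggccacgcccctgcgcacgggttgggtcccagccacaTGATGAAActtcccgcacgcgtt
Chac1: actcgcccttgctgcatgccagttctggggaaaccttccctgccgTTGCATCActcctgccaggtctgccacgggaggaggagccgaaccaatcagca
Herpud1: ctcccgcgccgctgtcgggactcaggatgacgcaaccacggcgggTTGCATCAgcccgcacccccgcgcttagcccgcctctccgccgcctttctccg

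The cAMP response element TGACGTCA, on either strand, stood in 0 of 16 ER genes, in 1 of 20 ATF4-type genes (Ppp1r15a) and in 2.03% of all genes. The shorter TGACG was found in 43.8% of ER genes, 30% of ATF4-type genes and 23% of all genes. The letters TGACGTGG, known as a site of XBP1, stood in 0 member windows and 0.714% of all genes. These are matches of letters and say nothing of binding.

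**Figure D1:**
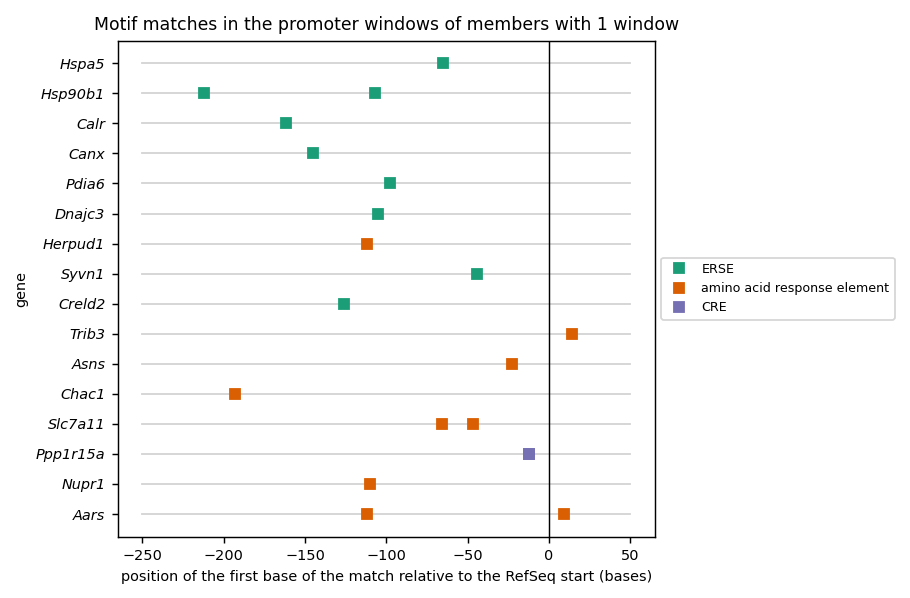
Positions of motif matches in the promoter windows of the members with 1 window, where each line is a gene, the x axis is the distance in bases of the match's first base from the RefSeq start, and each square is a match. Among the genes drawn, ER stress response elements lie in ER genes, amino acid response elements in ATF4-type genes and Herpud1, and the cAMP response element in Ppp1r15a.

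Each array detected 8455 to 10082 of 24613 probes. Values below are background-corrected, quantile-normalized log2 intensities of a gene's brightest probe, and levels of different genes are not compared with each other. A difference was called where limma's moderated two-sided test, run over all 7746 genes, gave a Benjamini-Hochberg adjusted p under 0.05, and "SE" is the standard error of a log2 difference from that model. Hdac5 read 5.72 to 6.73 in the 8 shHDAC45 arrays, against 9.02 to 10.35 in the 8 GFP arrays. Hdac4 read 5.74 to 6.99 in shHDAC45 arrays, against 7.4 to 8.66 in GFP arrays. The forskolin target G6pc was at least 21.5-fold higher in GFP cells given forskolin for 2 h than in those given DMSO, and at least 69.1-fold at 4 h. In shHDAC45 cells it was at least 3.83-fold higher at 2 h and at least 1.26-fold at 4 h. Nr4a2, a further check of forskolin, was at least 16.1-fold and 2.41-fold higher in GFP cells at 2 h and 4 h. In shHDAC45 cells Nr4a2 was at least 7.51-fold and 2.33-fold higher. The DMSO arrays detected neither probe. For such a probe the lower group has only a bound, taken per array as the higher of its own signal and the dimmest detected probe's, and the fold is given as "at least".

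The labelled cell type was checked against hepatocyte markers. Of 12 listed markers, Apoa1, Apob, Ttr, Serpina1a, Serpina1b and Hnf4a were measured, whereas the probes of Alb, Fgb, Tat and Cyp2e1 were not detected. All 6 measured markers were lower in shHDAC45 cells than in GFP cells, by a median of -1.9 on the log2 scale, and their summed linear signal ran from 6890 to 12700 in shHDAC45 arrays, against 48100 to 72900 in GFP arrays. In RNA of whole cultures, fewer cells of a type and less RNA per cell cannot be told apart. Of the other lists, 4 of 4 measured endothelial markers, 3 of 3 stellate cell and fibroblast markers and 2 of 4 Kupffer cell markers were higher in shHDAC45 cells, while 3 of 3 cholangiocyte markers and 1 Kupffer cell marker were lower. The Kupffer cell gene Clec4f and all 4 T and B cell probes were not detected. These shifts accompany every comparison of the viruses below, and their part in it was not tested.

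Over the 4 conditions together, knockdown of Hdac4 and Hdac5 went with higher signal of most ATF4-type genes and of many ER genes. Of 19 ATF4-type genes 14 were higher and 3 lower in shHDAC45 cells, with a median log2 difference of 0.6. The 14 include Sesn2, detected on 6 shHDAC45 arrays and 0 GFP arrays, which passed the detection filter only through the cells where it is high. Of 11 ER genes 7 were higher and 0 lower (0 also at an unadjusted p under 0.05), with a median of 0.38. The virus changed much of the transcriptome, as 73.7% of all 7746 genes were called, 37.5% higher and 36.2% lower, with a median of 0. The share of the 30 members that was called, 24, is therefore close to that of all genes, and the members differ from them in the split of directions, 21 higher against 3 lower. Among the 26 members detected on all 16 arrays, 19 were higher and 3 lower.

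**Figure D2:**
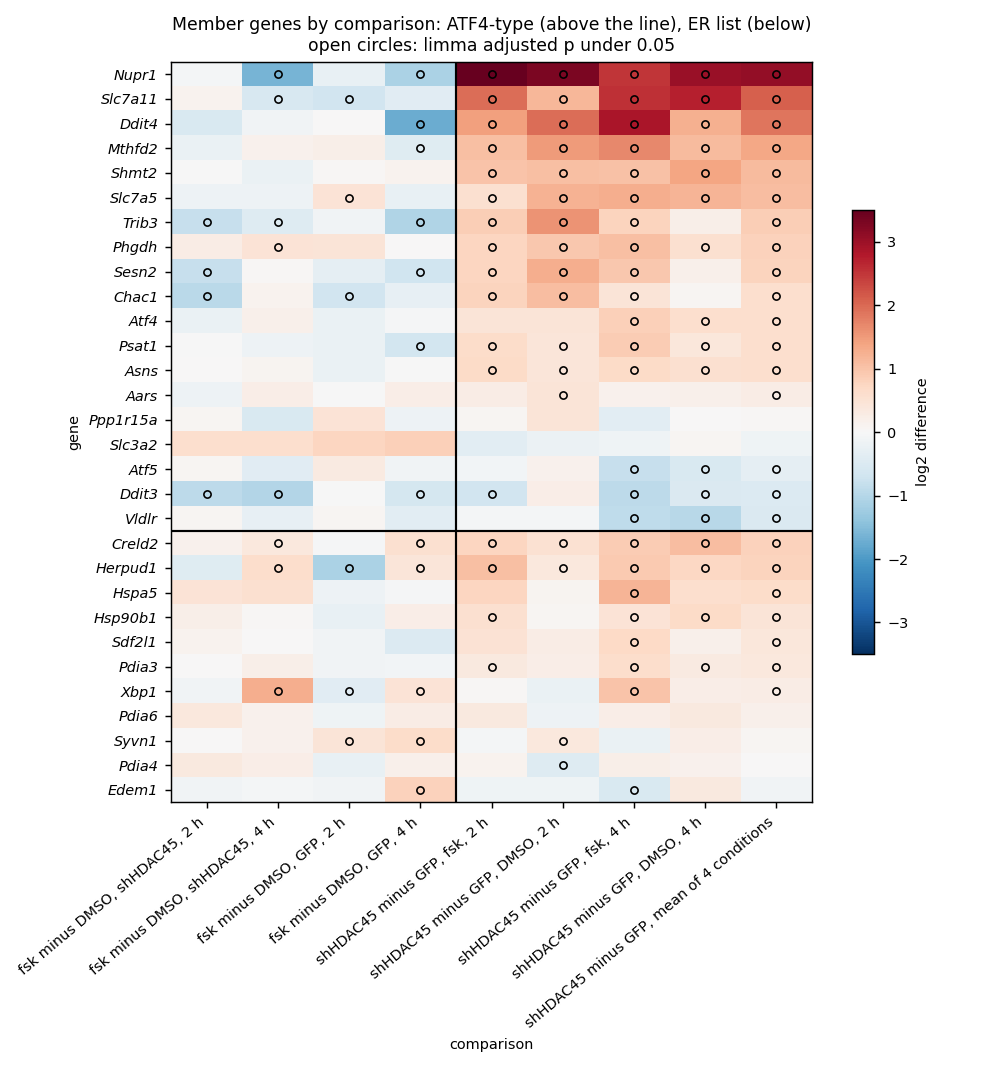
Log2 difference of each of the 30 members (rows) in 9 comparisons (columns), with forskolin minus DMSO to the left of the vertical line and shHDAC45 minus GFP to its right. Circles mark adjusted p under 0.05. Values that use Sesn2 in GFP cells or Edem1 in GFP cells with DMSO for 4 h rest on arrays below background. The knockdown columns are mostly red for the ATF4-type genes above the horizontal line, whereas in the forskolin columns at 4 h several ER genes are red and several ATF4-type genes blue.

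Nupr1 (probe ILMN_2742042), a small nuclear protein induced by many stresses, showed the largest difference among the members. Its log2 signal had a lowest value of 10.85, a median of 12.74 and a highest value of 13.12 in the 8 shHDAC45 arrays, against 8.38, 9.49 and 9.78 in the 8 GFP arrays. The arrays of the viruses did not overlap, and the difference was 3.07 (SE 0.053, limma adjusted p = 9.5e-14). Ddit4 (REDD1), an inhibitor of mTORC1 signalling, read 9.81, 10.19 and 10.66 in shHDAC45 arrays and 7.22, 8.49 and 9.15 in GFP arrays (lowest, median, highest). This was a difference of 1.88 (SE 0.1, adjusted p = 2.1e-09), again without overlap.

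The factors that give the pathway its name moved less. Atf4 itself read 11.84, 12.23 and 12.38 in shHDAC45 arrays, against 11.28, 11.5 and 12 in GFP arrays, a difference of 0.59 (SE 0.11, adjusted p = 0.00024) with overlapping arrays. A second probe of Atf4 gave 0.31 (SE 0.053, adjusted p = 0.00016). The array measures Atf4 mRNA, whereas the protein is known to be set mainly by translation. Ddit3, the transcription factor CHOP that promotes death under lasting stress, went the other way, with 7.63, 8.59 and 9.39 in shHDAC45 arrays, against 8.74, 9.06 and 9.56 in GFP arrays. It was lower by a log2 difference of -0.47 (SE 0.089, adjusted p = 0.00035), and Atf5, a relative of ATF4, was lower by -0.32 (SE 0.087, adjusted p = 0.0048).

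Trib3, a pseudokinase known to bind Akt and to be induced by ATF4 and CHOP, read 10.94, 11.35 and 12.17 in shHDAC45 arrays, against 10.12, 10.5 and 11.22 in GFP arrays. The difference was 0.86 (SE 0.057, adjusted p = 1.6e-08), and the gene's dimmer probes gave 0.49 (adjusted p = 0.00098) and 0.59 (adjusted p = 0.0035). Chac1, an enzyme that degrades glutathione, was higher by 0.6 (SE 0.051, adjusted p = 2.2e-07). Sesn2, which restrains mTORC1 when leucine is low, was detected on 6 of 8 shHDAC45 arrays and on 0 of 8 GFP arrays, and with DMSO for 2 h it was at least 1.65-fold higher in shHDAC45 cells. Ppp1r15a (GADD34), which helps to remove the phosphate from eIF2-alpha, was not called, with a difference of 0.04 (SE 0.12, adjusted p = 0.77). Vldlr, a lipoprotein receptor, was lower by -0.5 (SE 0.067, adjusted p = 1.6e-05).

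Slc7a11, the cystine carrier that feeds glutathione synthesis, read 8.22, 8.54 and 9.46 in shHDAC45 arrays, against 5.98, 6.57 and 7.22 in GFP arrays. The difference was 2.1 (SE 0.088, adjusted p = 1.7e-10), and in cells given forskolin for 2 h, where the GFP arrays did not detect it, shHDAC45 cells were at least 3.09-fold higher. Slc7a5 (LAT1), the light chain of a carrier of large neutral amino acids, read 11.88, 12.15 and 12.28 in shHDAC45 arrays and 10.72, 11 and 11.59 in GFP arrays, a difference of 1.07 (SE 0.053, adjusted p = 9.6e-10). Both light chains were higher in every shHDAC45 array than in any GFP array. Slc3a2, the heavy chain that both carriers share, was not called, with a difference of -0.16 (SE 0.22, adjusted p = 0.51). Its arrays ranged from 8.21 to 9.57 in shHDAC45 cells and from 8.19 to 10.27 in GFP cells.

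Among the enzymes, Mthfd2 of the mitochondrial folate pathway read 11.81, 11.95 and 12.18 in shHDAC45 arrays, against 10.24, 10.64 and 10.86 in GFP arrays (difference 1.34, SE 0.057, adjusted p = 1.7e-10). Shmt2, which makes glycine and one-carbon units from serine in mitochondria, read 9.07, 9.31 and 9.46 in shHDAC45 arrays and 7.88, 8.14 and 8.5 in GFP arrays (difference 1.12, SE 0.071, adjusted p = 1.1e-08). Neither overlapped between the viruses. Phgdh and Psat1, the first steps of serine synthesis, were higher by 0.82 (SE 0.074, adjusted p = 3.5e-07) and 0.59 (SE 0.047, adjusted p = 1e-07). Asns, asparagine synthetase and the textbook target of the response, read 11.95, 12.22 and 12.39 in shHDAC45 arrays, against 11.42, 11.66 and 11.86 in GFP arrays. The difference was 0.58 (SE 0.083, adjusted p = 3.1e-05), with no overlap, and a second probe gave 0.74 (adjusted p = 6.1e-08). Aars, alanyl-tRNA synthetase, was higher by 0.26 (SE 0.055, adjusted p = 0.00085).

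**Figure D3:**
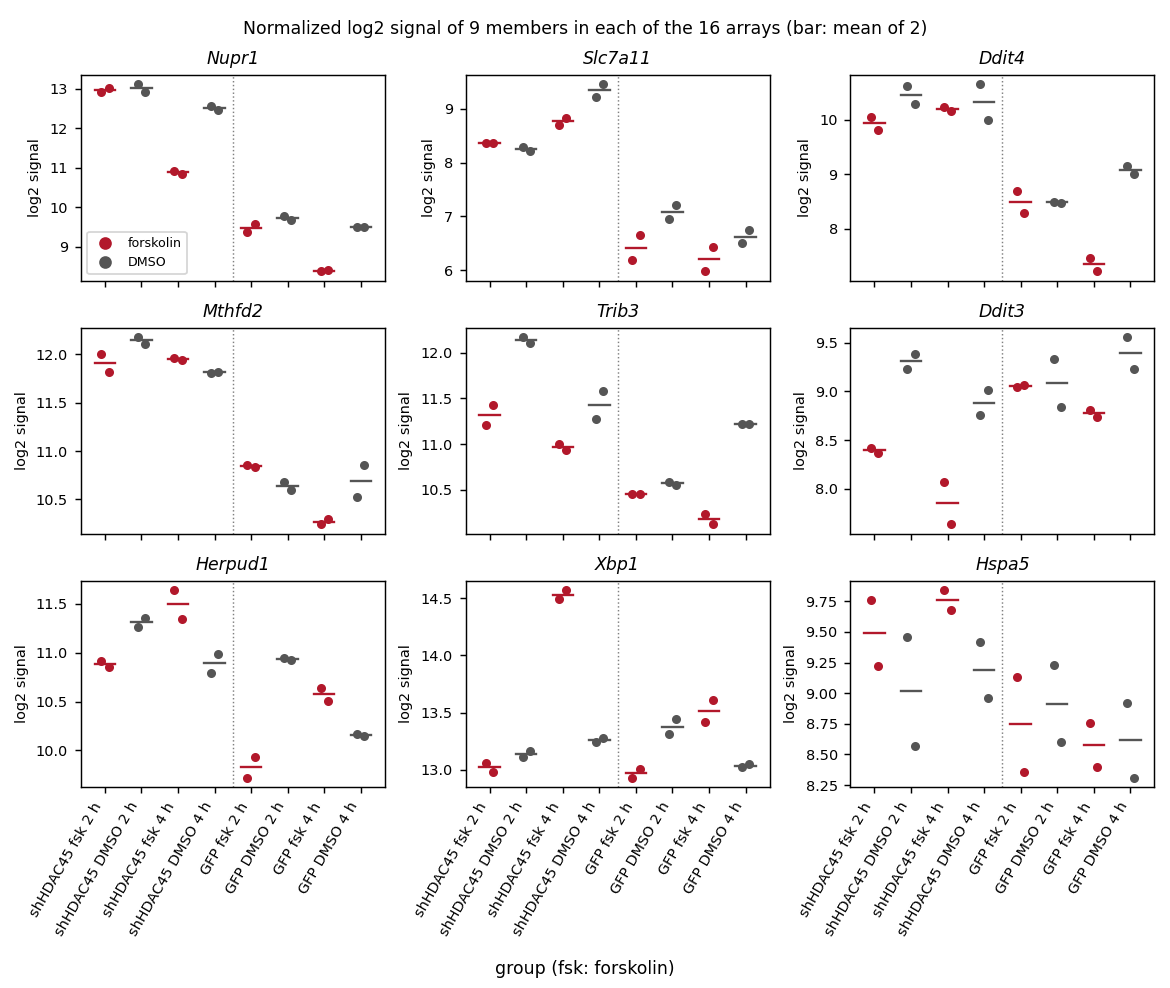
Normalized log2 signal (y axis) of 9 members in each of the 16 arrays by group (x axis), with shHDAC45 groups left of the dotted line and GFP groups right of it, and a bar at the mean of each group's 2 arrays. Nupr1, Slc7a11, Ddit4 and Mthfd2 do not overlap between the viruses, Ddit3 is lowest in shHDAC45 cells given forskolin for 4 h, and Xbp1 is highest there.

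ER genes shifted by smaller amounts. Hspa5 (BiP), the main chaperone of the ER and the usual readout of its stress, read 8.57, 9.44 and 9.84 in shHDAC45 arrays, against 8.31, 8.68 and 9.23 in GFP arrays. The difference was 0.65 (SE 0.17, adjusted p = 0.0041), with overlapping arrays. Creld2, a secreted ER factor, read 10.39, 10.71 and 11.39 in shHDAC45 arrays, against 9.63, 9.87 and 10.38 in GFP arrays, so that every shHDAC45 array was higher (difference 0.82, SE 0.062, adjusted p = 6e-08). Herpud1, a scaffold of ER-associated degradation, was higher by 0.77 (SE 0.06, adjusted p = 8.3e-08). The chaperone Hsp90b1 (GRP94), the disulfide isomerase Pdia3, the BiP partner Sdf2l1 and the transcription factor Xbp1 were higher by 0.44, 0.38, 0.41 and 0.26 (adjusted p from 4.1e-06 to 0.0043). Of its 4 conditions, Xbp1 was called in 1, forskolin at 4 h (1.01, adjusted p = 1.7e-06), and it differed by 0.05 with forskolin at 2 h, -0.24 with DMSO at 2 h and 0.23 with DMSO at 4 h (adjusted p = 0.69, 0.056 and 0.066). The isomerases Pdia4 and Pdia6, the ubiquitin ligase Syvn1 and the mannosidase-like Edem1 were not called, with differences from -0.12 to 0.18 and adjusted p from 0.17 to 0.95. The Xbp1 probe does not separate the spliced from the unspliced mRNA as far as the annotation given here tells. All 24 calls of this averaged comparison held under each of the alternative settings that could be run for it, the leaving out of each array included.

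By condition, 9 of 19 ATF4-type genes were called higher in shHDAC45 cells in all 4 conditions, namely Nupr1, Slc7a11, Ddit4, Mthfd2, Shmt2, Slc7a5, Phgdh, Psat1 and Asns. Of 11 ER genes the same held for Herpud1 and Creld2. The share of all genes called higher in all 4 conditions was not counted, so these counts have no background beside them. With DMSO at 2 h 13 ATF4-type genes were higher and 0 lower (0 also at an unadjusted p under 0.05) and 3 ER genes were higher and 1 lower, beside 25.1% of all genes higher and 25% lower (50% in all). With DMSO at 4 h these counts were 10 and 3 of the ATF4-type list and 4 and 0 of the ER list, beside 26.6% of all genes higher and 26.2% lower (52.7% in all). With forskolin they were 12 and 1 of the ATF4-type list and 4 and 0 of the ER list at 2 h, beside 25.4% of all genes higher and 24.7% lower (50.1% in all). They were 13 and 3 of the ATF4-type list and 7 and 1 of the ER list at 4 h, beside 30% of all genes higher and 29% lower (59.1% in all). The ER genes called lower were Pdia4 with DMSO at 2 h (-0.46, adjusted p = 0.019, not called without GFP DMSO array B, 0.099, or shHDAC45 DMSO array A, 0.13) and Edem1 with forskolin at 4 h (-0.53, adjusted p = 0.03, not called without array B of either group, 0.17 for GFP and 0.23 for shHDAC45). The called share of the ER list thus lay below that of all genes in 3 of the conditions. Sesn2 is counted as higher in 3 of the 4 conditions, although no GFP array detected it. Trib3 is counted as higher with forskolin by its brightest probe. With forskolin at 2 h its dimmer probes gave 0.25 and 0.39 (limma adjusted p = 0.35 and 0.31). At 4 h they gave 0.44 and 0.81 (adjusted p = 0.089 and 0.035).

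The condition mattered for single genes. Ddit4 was higher in shHDAC45 cells by 2.85 (SE 0.2, adjusted p = 1.1e-07) with forskolin at 4 h and by 1.25 (SE 0.2, adjusted p = 2e-04) with DMSO at 4 h. Trib3 was higher by 1.57 (SE 0.11, adjusted p = 2.1e-07) with DMSO at 2 h, but by 0.21 (SE 0.11, adjusted p = 0.14) with DMSO at 4 h. Chac1 likewise differed by 1.08 (SE 0.1, adjusted p = 2.3e-06) with DMSO at 2 h and by 0.06 (SE 0.1, adjusted p = 0.64) with DMSO at 4 h. Hspa5 was called with forskolin at 4 h, at 9.84 and 9.68 in shHDAC45 cells and 8.76 and 8.4 in GFP cells (difference 1.18, SE 0.34, adjusted p = 0.01), and with DMSO at 2 h it differed by 0.1 (SE 0.34, adjusted p = 0.84). A dependence on the condition was not shown for Hspa5. Its forskolin effect differed between the viruses by 0.65 at 2 h and 0.6 at 4 h (limma adjusted p = 0.51 for both). Its DMSO change from 2 h to 4 h differed by 0.48 (adjusted p = 0.61). Without GFP forskolin array B of 4 h the Hspa5 call was lost (adjusted p = 0.072), as it was without shHDAC45 forskolin array A (adjusted p = 0.058). Vldlr was lower at 4 h, by -0.98 with DMSO and -0.9 with forskolin (adjusted p = 4.6e-05 and 7.9e-05), and at 2 h it differed by -0.06 under either treatment.

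Other genes of the same pathways, from separate lists, were also counted. Of 34 further ER genes 14 were higher and 9 lower in shHDAC45 cells (median 0.14), and of 27 further amino acid response genes 18 were higher and 4 lower (median 0.35), averaged over the 4 conditions. Over all genes 37.5% were higher and 36.2% lower (73.7% in all), so both lists were called about as often as all genes. Slc7a3, a carrier of cationic amino acids that the GFP arrays did not detect, was at least 3.58-fold to at least 5.68-fold higher in the 4 conditions. The glutamine carrier Slc1a5 was at least 1.4-fold to at least 1.97-fold higher, and also not detected in GFP groups. Both carriers therefore passed the detection filter only through shHDAC45 arrays. Gpt2, a mitochondrial alanine transaminase, was lower by -1.61 (SE 0.1, adjusted p = 9.7e-09). In the ER list the falls were led by Ganab, a glucosidase that trims new glycans (-1.19, SE 0.065, adjusted p = 2.2e-09), and Sel1l, the partner of Syvn1 (-1.05, SE 0.075, adjusted p = 3.7e-08).

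The next question was what forskolin did to these genes in GFP cells. At 2 h few members changed, 1 higher and 2 lower in each list, beside 10.6% of all genes higher and 10.8% lower (21.3% in all), so the members were called about as often as other genes. Herpud1 read 9.72 and 9.93 with forskolin for 2 h, against 10.95 and 10.93 with DMSO. This fall of 1.11 on the log2 scale (SE 0.12, adjusted p = 2e-05) was the largest of the ER list. Xbp1 read 12.93 and 13.01 with forskolin, against 13.31 and 13.44 with DMSO (difference -0.41, SE 0.097, adjusted p = 0.0093). Syvn1, the ubiquitin ligase of ER-associated degradation, rose to 12.3 and 12.12 with forskolin, against 11.76 and 11.76 with DMSO (difference 0.45, SE 0.1, adjusted p = 0.0062).

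In the ATF4-type list, Chac1 read 9.6 and 9.4 with forskolin for 2 h, against 10.2 and 10.12 with DMSO (difference -0.66, SE 0.1, adjusted p = 0.00046). Slc7a5 read 11.59 and 11.45 with forskolin, against 10.97 and 11.13 with DMSO (difference 0.47, SE 0.11, adjusted p = 0.007). Slc7a11 read 6.19 and 6.65 with forskolin, where neither array detected it, against 6.96 and 7.22 with DMSO. It was at least 1.27-fold lower with forskolin (adjusted p = 0.016). The landmarks Hspa5 (9.13 and 8.36 with forskolin, 9.23 and 8.6 with DMSO), Atf4 (11.82 and 11.28, 12 and 11.55) and Ddit3 (9.05 and 9.07, 9.33 and 8.84) were not called, with adjusted p of 0.77, 0.52 and 0.95. Trib3 and Asns differed by -0.12 and -0.23 (adjusted p = 0.52 and 0.37). A second Atf4 probe was called, at -0.35 (adjusted p = 0.035).

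Of these 6 calls, Chac1 alone passed under every setting tried. Without forskolin array A of 2 h, Slc7a11, Xbp1, Syvn1 and Slc7a5 missed the threshold (adjusted p = 0.15, 0.065, 0.063 and 0.062), as did Slc7a5 without DMSO array A (adjusted p = 0.074), and Slc7a11 and Xbp1 without DMSO array B (adjusted p = 0.12 and 0.08). Against the DMSO arrays of 4 h, Herpud1 differed by -0.33 (adjusted p = 0.08) and Xbp1 by -0.07 (adjusted p = 0.68), while scaling to the median brought 10 calls, 0 higher and 10 lower.

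At 4 h in GFP cells the lists parted. With forskolin 5 of 11 ER genes were higher and 0 lower, with a median of 0.26, while 0 of 19 ATF4-type genes were higher (0 also at an unadjusted p under 0.05) and 7 lower, with a median of -0.28. The highest ATF4-type value was that of Slc3a2, whose arrays did not overlap but which was not called (0.83, SE 0.43, adjusted p = 0.17). With the array letter (A or B) as a block in the limma model, Slc3a2 was called higher (adjusted p = 0.011). Among all genes 14.4% were higher and 17.7% lower (32% in all), with a median of -0.01. The median of the ATF4-type list minus that of the ER list was -0.53, against 0.13 at 2 h. With the DMSO arrays of the other time these values were -0.27 at 4 h and -0.16 at 2 h, so their size and, at 2 h, their sign depend on the DMSO arrays used. Without GFP DMSO array A of 2 h the 2 h value was 0.27. After median scaling 3 members were higher and 9 lower at 4 h.

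Ddit4 fell furthest, to 7.47 and 7.22 with forskolin for 4 h, against 9.15 and 9 with DMSO (difference -1.73, SE 0.2, adjusted p = 3e-05). Nupr1 read 8.38 and 8.41 with forskolin, against 9.49 and 9.49 with DMSO (difference -1.1, SE 0.11, adjusted p = 5.3e-06). Trib3 read 10.23 and 10.12 with forskolin, against 11.22 and 11.22 with DMSO (difference -1.04, SE 0.11, adjusted p = 1.6e-05). In all 3 genes both forskolin arrays lay below both DMSO arrays by several times the spread within a pair. The dimmer probes of Trib3 gave -1.83 (adjusted p = 0.00057) and -0.56 (adjusted p = 0.063).

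Psat1 read 10.94 and 10.92 with forskolin for 4 h, against 11.65 and 11.51 with DMSO (difference -0.65, SE 0.094, adjusted p = 0.00017), whereas its second probe gave -0.22 (adjusted p = 0.26). Ddit3 read 8.81 and 8.74 with forskolin, against 9.56 and 9.23 with DMSO (difference -0.62, SE 0.18, adjusted p = 0.017). Mthfd2 differed by -0.42 (SE 0.11, adjusted p = 0.013). Sesn2 was called lower (adjusted p = 0.018) with all 4 arrays below background, so it has no fold. Atf4 and its target Asns were not called, as Atf4 read 11.43 and 11.45 with forskolin and 11.61 and 11.38 with DMSO (adjusted p = 0.88), and Asns 11.78 and 11.42 with forskolin and 11.72 and 11.51 with DMSO (adjusted p = 0.97).

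In the ER list, Syvn1 read 12.46 and 12.47 with forskolin for 4 h, against 11.86 and 11.8 with DMSO (difference 0.64, SE 0.1, adjusted p = 0.00036). Creld2 read 10.38 and 10.22 with forskolin, against 9.63 and 9.87 with DMSO (difference 0.55, SE 0.12, adjusted p = 0.0043). Edem1, which passes misfolded glycoproteins on for degradation, read 7.23 and 7.47 with forskolin, against 6.53 and 6.58 with DMSO, where it was not detected. It was at least 1.64-fold higher with forskolin (adjusted p = 0.0065). Xbp1 read 13.42 and 13.61 with forskolin, against 13.02 and 13.05 with DMSO (difference 0.48, SE 0.097, adjusted p = 0.0022), and Herpud1 10.64 and 10.51, against 10.17 and 10.15 (difference 0.42, SE 0.12, adjusted p = 0.017). These 5 genes are a transcription factor, degradation factors and Creld2, and the chaperone Hspa5 was not among them. It read 8.76 and 8.4 with forskolin and 8.92 and 8.31 with DMSO (difference -0.03, SE 0.34, adjusted p = 0.96).

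Calls for Syvn1, Ddit4, Nupr1, Trib3 and Psat1 held under every setting tried. Set against the DMSO arrays of 2 h, Herpud1 turned to -0.36 (adjusted p = 0.032), and Xbp1 (0.14, adjusted p = 0.28), Ddit3 (-0.31, 0.19), Sesn2 (0.081) and Edem1 (0.067) were not called. Median scaling also lost Xbp1 (0.22, adjusted p = 0.28) and Herpud1 (0.29, adjusted p = 0.24). The Ddit3 call was lost without DMSO array A of 4 h (adjusted p = 0.14) or either forskolin array (0.055 without A and 0.082 without B), Sesn2 without DMSO array B (0.095) or either forskolin array (0.056 without A and 0.085 without B), and Mthfd2 without DMSO array B (0.15) or forskolin array A (0.073). Herpud1 lost its call without any of DMSO array A (0.063), DMSO array B (0.075) or forskolin array A (0.11), Creld2 without DMSO array A (0.052), and Edem1 without forskolin array B (0.056).

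The test of the change in the forskolin effect from 2 h to 4 h in GFP cells called 5 ER genes, all in the direction of a higher effect at 4 h, and 6 ATF4-type genes, all in the direction of a lower one. Over all genes 12.6% were called higher and 14% lower (26.6% in all). Herpud1 led the ER genes with 1.53 (SE 0.17, adjusted p = 3.3e-05), and Xbp1 followed with 0.89 (adjusted p = 0.00044). Edem1 was also called (adjusted p = 0.023), but no size is read from its fitted value because its probe was below background in GFP cells with DMSO for 4 h. After median scaling 6 members were called higher and 4 lower. Ddit4 led the ATF4-type genes with -1.74 (adjusted p = 0.00072), followed by Trib3 with -0.93 and Nupr1 with -0.85 (adjusted p = 0.001 and 0.0011). Dimmer probes of Trib3 gave -0.69 (adjusted p = 0.11) and -1.74 (adjusted p = 0.011). Psat1 was called at -0.43 (adjusted p = 0.03), but its second probe gave -0.01 (adjusted p = 0.98). The Edem1 call was lost without GFP DMSO array B of 2 h (adjusted p = 0.084), either DMSO array of 4 h (0.062 without A and 0.051 without B), forskolin array A of 2 h (0.084) or forskolin array B of 4 h (0.08). Of the 11 calls, 6 held under every setting and 5 did not. The 2 h and 4 h effects rest on separate arrays, DMSO included. Under DMSO alone, Herpud1 in GFP cells differed by -0.78 between 4 h and 2 h (limma adjusted p = 0.00088), which is part of its 1.53.

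In shHDAC45 cells, forskolin for 2 h left the ER list at 0 calls by limma, with 1 gene higher and 1 lower at an unadjusted p under 0.05, and lowered 4 ATF4-type genes. Over all genes 2.29% were called higher and 2.52% lower (4.8% in all), fewer than in GFP cells. Chac1 read 10.26 and 10.32 with forskolin, against 11.22 and 11.25 with DMSO (difference -0.95, SE 0.1, adjusted p = 6.5e-05). Trib3 read 11.21 and 11.43 with forskolin, against 12.17 and 12.11 with DMSO (difference -0.82, SE 0.11, adjusted p = 0.00062). Ddit3 read 8.42 and 8.37 with forskolin, against 9.23 and 9.39 with DMSO (difference -0.92, SE 0.18, adjusted p = 0.0085). All 3 are known stress effectors downstream of ATF4.

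Sesn2 read 6.16 and 6.55 with forskolin for 2 h, against 7.44 and 6.89 with DMSO (difference -0.81, SE 0.2, adjusted p = 0.04), a call that was lost without array A of either group (adjusted p = 0.28 for both) and without several arrays outside the comparison (0.051 to 0.054). Hspa5 read 9.76 and 9.22 with forskolin and 9.46 and 8.57 with DMSO, Atf4 12.19 and 11.84 with forskolin and 12.38 and 12.08 with DMSO, and Asns 12.25 and 12.17 with forskolin and 12.3 and 12.07 with DMSO. None of these landmarks was called (adjusted p = 0.55, 0.69 and 0.96). Against the DMSO arrays of 4 h, 0 of the 4 calls stood, with Trib3 at -0.11 (adjusted p = 0.57), Chac1 at -0.27 (0.078), Ddit3 at -0.49 (0.071) and Sesn2 at 0.03. The dimmer Trib3 probes gave -0.72 and -1.03 (adjusted p = 0.085 and 0.086). The Ddit3 call was lost without DMSO array B (adjusted p = 0.082), forskolin array A (0.055) or forskolin array B (0.061).

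At 4 h in shHDAC45 cells, forskolin raised 3 ER genes and lowered 0, and raised 1 and lowered 4 ATF4-type genes, beside 17.4% of all genes higher and 18% lower (35.3% in all). Xbp1 reached 14.49 and 14.57 with forskolin, against 13.24 and 13.28 with DMSO, its highest level in any group (difference 1.26, SE 0.097, adjusted p = 1.1e-06). Herpud1 read 11.64 and 11.35 with forskolin, against 10.79 and 10.99 with DMSO (difference 0.61, SE 0.12, adjusted p = 0.0019), and Creld2 11.02 and 11.39, against 10.83 and 10.84 (difference 0.37, SE 0.12, adjusted p = 0.035). Hspa5 read 9.84 and 9.68 with forskolin, against 9.42 and 8.96 with DMSO, which did not overlap but was not called (difference 0.57, SE 0.34, adjusted p = 0.22). Fitted with only the compared arrays, the same difference was called (limma adjusted p = 0.037). It was also called with the array letter (A or B) as a block in the limma model (adjusted p = 0.0088). For Hspa5 array A read above array B in 8 of 8 groups, by a mean of 0.55.

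Nupr1 fell by 1.64 on the log2 scale, to 10.92 and 10.85 with forskolin for 4 h, against 12.57 and 12.46 with DMSO (SE 0.11, adjusted p = 2.5e-07). Ddit3 read 8.07 and 7.63 with forskolin, against 8.76 and 9.01 with DMSO (difference -1.03, SE 0.18, adjusted p = 7e-04). Trib3 read 11 and 10.94 with forskolin, against 11.27 and 11.58 with DMSO (difference -0.46, SE 0.11, adjusted p = 0.0075). The dimmer probes of Trib3 gave -0.28 (adjusted p = 0.34) and -0.84 (adjusted p = 0.049). By their brightest probes Nupr1, Ddit3 and Trib3 had also been called lower with forskolin at 4 h in GFP cells, from separate arrays.

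Slc7a11 read 8.7 and 8.83 with forskolin for 4 h, against 9.22 and 9.46 with DMSO (difference -0.57, SE 0.18, adjusted p = 0.023), while Phgdh read 9.85 and 9.8, against 9.29 and 9.39 (difference 0.48, SE 0.15, adjusted p = 0.024). Ddit4, which had fallen furthest in GFP cells, read 10.23 and 10.16 with forskolin and 10.66 and 9.99 with DMSO in shHDAC45 cells. Atf4 read 12.27 and 12.29 with forskolin and 12.34 and 11.85 with DMSO (adjusted p = 0.53), and Asns 12.19 and 12.34 with forskolin and 12.39 and 11.95 with DMSO (adjusted p = 0.68). Calls for Xbp1, Nupr1 and Ddit3 held under every setting. Against the DMSO arrays of 2 h, Herpud1 fell short at 0.19 (adjusted p = 0.23) and Slc7a11 turned to 0.51 (adjusted p = 0.035). The Trib3 call was lost without DMSO array B (adjusted p = 0.094), Creld2 without DMSO array A (0.11), DMSO array B (0.11) or forskolin array B (0.32), Slc7a11 without DMSO array B (0.15), forskolin array A (0.12) or forskolin array B (0.057), and Phgdh without any of the 4 arrays compared (0.059 to 0.11). A second Shmt2 probe was called lower, at -0.91 (adjusted p = 0.0039), where the brighter one gave -0.24 (adjusted p = 0.21).

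Between 2 h and 4 h the forskolin effect in shHDAC45 cells changed for 4 members, Xbp1 by 1.38 (SE 0.14, adjusted p = 4.4e-05), Herpud1 by 1.03 (SE 0.17, adjusted p = 0.0012), Chac1 by 1.06 (SE 0.14, adjusted p = 0.00035) and Nupr1 by -1.58 (SE 0.15, adjusted p = 3.2e-05). Over all genes 9.26% were called higher and 10.6% lower (19.8% in all). Xbp1 and Herpud1 moved the same way in time in both kinds of cells.

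Whether the forskolin effect differed between the viruses was tested directly. At 2 h it did for 3 members, beside 5.96% of all genes (3.12% higher and 2.84% lower), namely Herpud1 (0.69, SE 0.17, adjusted p = 0.03), Trib3 (-0.7, SE 0.16, adjusted p = 0.021) and Slc7a5 (-0.63, SE 0.15, adjusted p = 0.025). Without GFP forskolin array A of 2 h, 0 members were called, with adjusted p of 0.11 for Herpud1, 0.055 for Trib3 and 0.089 for Slc7a5. All 3 were also uncalled without GFP DMSO array A of 2 h (adjusted p from 0.055 to 0.11), shHDAC45 DMSO array A (0.061 to 0.1) or shHDAC45 forskolin array A (0.088 to 0.098). At 4 h it did for 6 members, beside 8.57% of all genes (4.8% higher and 3.77% lower). Ddit4 had the largest such difference, 1.6 (SE 0.29, adjusted p = 0.0037), and Xbp1 the next, 0.79 (SE 0.14, adjusted p = 0.0032), both of which held under every setting. The other 4 were Trib3 (0.59), Mthfd2 (0.56), Psat1 (0.48) and Nupr1 (-0.54), with adjusted p from 0.042 to 0.0496, and leaving out any single array other than the GFP forskolin arrays of 2 h reduced the 6 calls to 2 or 3. With median scaling 2 members were called at each time, all higher. At 2 h only 1 of them was among the 3 calls above, and the lower calls of Trib3 and Slc7a5 were lost. At 4 h the 2 were among the 6 calls above.

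Other genes of the pathways under forskolin gave a wider picture in GFP cells. At 2 h the early-response factor Atf3, which also serves the amino acid response, rose by 2.95 (SE 0.13, adjusted p = 3.1e-09), Cebpb, a partner of ATF4, by 1.15 (SE 0.11, adjusted p = 4.6e-06), and Creb3l3, a hepatic ER-bound transcription factor, by 0.9 (SE 0.11, adjusted p = 6.2e-05). Of 34 further ER genes 5 were higher and 1 lower at 2 h (median 0.08). Of 27 further amino acid response genes 4 were higher and 2 lower (median -0.08). Both lists were called about as often as all genes, of which 10.6% were higher and 10.8% lower (21.3% in all). At 4 h 4 of 34 further ER genes were higher and 6 lower (median 0), with Sec61g and Sec61b, subunits of the ER protein channel, lower by -1.32 (SE 0.13, adjusted p = 4.8e-06) and -0.91 (SE 0.12, adjusted p = 5.8e-05). Of 27 further amino acid response genes 3 were higher and 8 lower (median -0.17), led by Jdp2 (-1.44, SE 0.13, adjusted p = 2.9e-06) and the serine and alanine carrier Slc1a4 (-1.02, SE 0.12, adjusted p = 2.9e-05). The other ER genes thus moved in both directions at 4 h, with no shift of their median. Over all genes 14.4% were higher and 17.7% lower at 4 h (32% in all), so these ER genes were called about as often as all genes.

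The DMSO arrays themselves changed between the times, and in opposite ways for some members. In shHDAC45 cells 2 ER genes were higher at 4 h than at 2 h (Hsp90b1 and Creld2, by 0.46 and 0.44, adjusted p = 0.025 and 0.045), and 1 ATF4-type gene was higher (Slc7a11) and 5 lower (Trib3, Chac1, Sesn2, Ppp1r15a and Nupr1, by -0.49 to -0.9), beside 4.48% of all genes higher and 4.16% lower (8.64% in all). In GFP cells 2 ER genes were lower at 4 h than at 2 h (Herpud1 by -0.78, adjusted p = 0.00088, and Xbp1 by -0.34, adjusted p = 0.04) and 3 ATF4-type genes higher (Vldlr, Trib3 and Chac1, by 0.34 to 0.75), beside 6.04% of all genes higher and 5.67% lower (11.7% in all). Trib3 read 11.27 and 11.58 at 4 h and 12.17 and 12.11 at 2 h in shHDAC45 cells, a difference of -0.71 (SE 0.11, adjusted p = 0.0016). In GFP cells it read 11.22 and 11.22 at 4 h and 10.59 and 10.55 at 2 h, a difference of 0.65 (SE 0.11, adjusted p = 0.0023). Its dimmer probes were not called in either kind of cell (adjusted p = 0.13 and 0.21 in shHDAC45 cells, 0.34 and 0.12 in GFP cells). By the brightest probe the gene lay far apart between the viruses at 2 h and close together at 4 h. The smaller changes were less steady. Without any 1 of the 4 arrays compared, Hsp90b1 in shHDAC45 cells (adjusted p = 0.069 to 0.16), Creld2 in shHDAC45 cells (0.14 to 0.17), Xbp1 in GFP cells (0.072 to 0.21) and Chac1 in GFP cells (0.1 to 0.22) were not called. In shHDAC45 cells Ppp1r15a was not called without either array of 2 h (0.19 without A and 0.072 without B) or array A of 4 h (0.23), Sesn2 without array A of 2 h (0.2) or of 4 h (0.18), and Nupr1 without array A of 2 h (0.11) or array B of 4 h (0.091). After median scaling 1 member was higher and 5 lower in shHDAC45 cells.

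The difference of these changes between the viruses was tested after this pattern had been seen. It called 7 members, beside 11% of all genes (5.37% higher and 5.65% lower). Trib3 differed by -1.36 (SE 0.16, adjusted p = 8.5e-05), with -0.95 (adjusted p = 0.068) and -1.51 (adjusted p = 0.044) by its dimmer probes, Chac1 by -1.02 (SE 0.14, adjusted p = 0.00041) and Vldlr by -0.92 (SE 0.19, adjusted p = 0.0064). Slc7a11 went the other way, by 1.56 (SE 0.25, adjusted p = 0.0011), with 9.22 and 9.46 at 4 h and 8.29 and 8.22 at 2 h in shHDAC45 cells, against 6.5 and 6.74 at 4 h and 6.96 and 7.22 at 2 h in GFP cells. These 4 held under every setting, and Hsp90b1 (0.59), Xbp1 (0.47) and Sesn2 did not (adjusted p = 0.033, 0.046 and 0.031). No size is read from the fitted value of Sesn2, as its probe was below background in all GFP groups. The time since infection or medium change is not given in the labels, and its part was not tested.

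**Figure D4:**
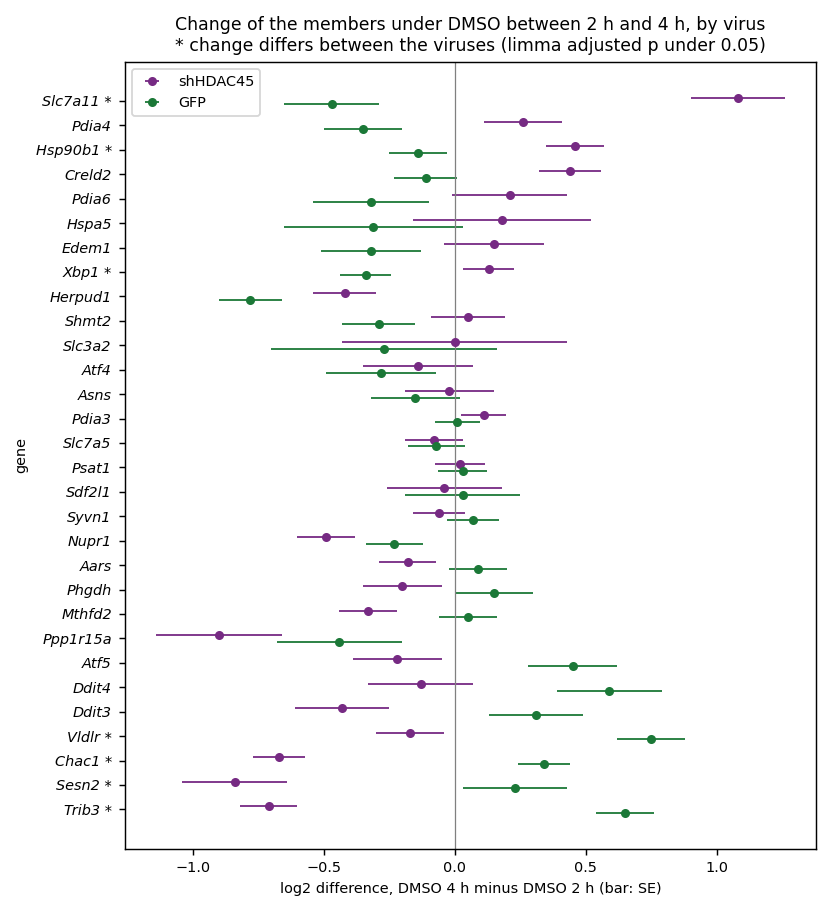
Log2 difference between 4 h and 2 h under DMSO (x axis, bars show the SE) for each member (rows), in shHDAC45 cells and in GFP cells, with asterisks where the change differed between the viruses. Sesn2 in GFP cells and Edem1 there at 4 h were below background. Trib3 and Chac1 lie on opposite sides of 0 in the 2 kinds of cells, and Slc7a11 is far to the right in shHDAC45 cells only.

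Setting the lists side by side over the 8 groups, the median deviation of a list's genes from their own mean over the 16 arrays was taken for each array, as a description with no test. The ATF4-type list stood at 0.33 and 0.39 in shHDAC45 cells with forskolin for 2 h and at 0.25 and 0.34 for 4 h, at 0.64 and 0.49 with DMSO for 2 h and at 0.24 and 0.18 for 4 h. In GFP cells it stood at -0.31 and -0.38 with forskolin for 2 h and at -0.43 and -0.59 for 4 h, at -0.28 and -0.28 with DMSO for 2 h and at -0.15 and -0.29 for 4 h. Every shHDAC45 array was thus above every GFP array. The ER list stood highest in shHDAC45 cells with forskolin for 4 h, at 0.39 and 0.41, and lowest in GFP cells with forskolin for 2 h, at -0.37 and -0.35. The ATF4-type list minus the ER list was most positive with DMSO for 2 h in shHDAC45 cells (0.63 and 0.46) and most negative with forskolin for 4 h in GFP cells (-0.47 and -0.36).

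**Figure D5:**
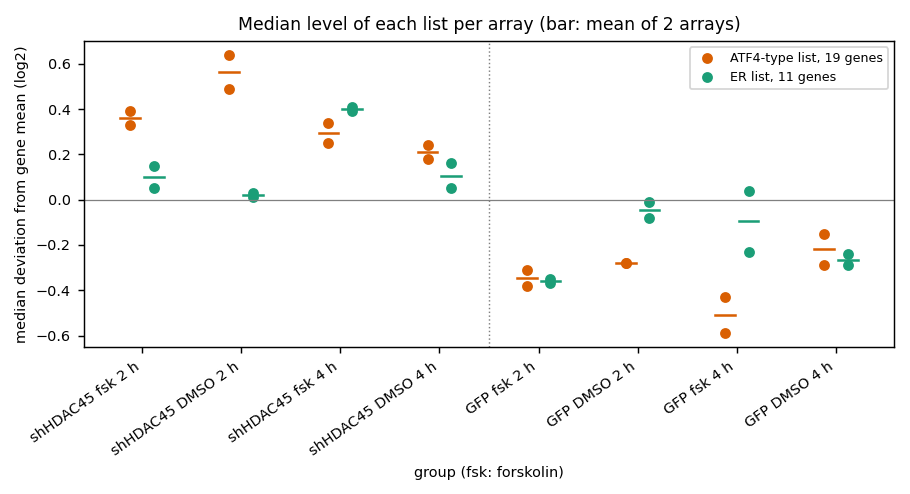
Median deviation of the 19 ATF4-type genes and the 11 ER genes from each gene's mean over all arrays (y axis, log2) in each array by group (x axis), with shHDAC45 groups left of the dotted line and bars at the mean of 2 arrays. The ATF4-type points lie above 0 in all shHDAC45 arrays and below 0 in all GFP arrays, and the ER points rise with forskolin at 4 h in shHDAC45 cells, to 0.39 and 0.41.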

How the data were processed

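RNA of 16 hepatocyte samples was measured on Illumina bead arrays, 2 per group. The deposited non-normalized table holds probe intensity values and a detection p-value per array, exported with GenomeStudio per the submitters' processing notes (version not given in the sources used here). The deposited normalized table also holds intensity values, whose normalization is not given in the sources used here, and served as an alternative. Columns of the first table name a group and a letter (A or B) that matches no sample label.

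Intensities were background-corrected from the detection p-values, quantile-normalized and log2-transformed with an offset of 16 (neqc, limma 3.58.1, R 4.3.3). Of 24613 probes, 20984 have 1 gene symbol in the platform annotation, 1 has several and 3628 have none. Probes detected (p under 0.01) on at least 2 arrays were kept, and each gene was represented by its brightest probe, giving 7746 genes. One limma model of 8 group means, with 8 residual degrees of freedom, gave 15 contrasts and 1 added after the data were seen, each adjusted by Benjamini-Hochberg over all genes at 0.05. The number of arrays limits the precision. The members and gene lists were chosen with earlier results of these data known. Per-array values are given for Hspa5, Atf4, Ddit3, Trib3 and Asns and for the 6 largest rises and falls without overlap in the forskolin and averaged knockdown contrasts. Of the other pathway genes, up to 3 rises and falls per contrast are named. Alternatives covered background correction, scaling, filters, probe choice, the arrays fitted, the prior, a replicate block, each array left out and DMSO arrays of the other time.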

Additional observations from a re-analysis of the deposited data

Results flagged for a closer look

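The results here are members for which a test of the difference between effects, by limma with adjustment over all genes, passed the threshold. In shHDAC45 cells the forskolin effect at 4 h minus that at 2 h was 1.38 for Xbp1, 1.06 for Chac1, 1.03 for Herpud1 and -1.58 for Nupr1. In GFP cells this difference was 1.53 for Herpud1, 0.93 for Edem1 (a fitted value with no size, as its probe was below background with DMSO for 4 h), 0.89 for Xbp1, 0.6 for Creld2 and 0.49 for Hsp90b1, and it was -1.74 for Ddit4, -0.93 for Trib3, -0.85 for Nupr1, -0.72 for Slc7a5, -0.63 for Mthfd2 and -0.43 for Psat1. A second Psat1 probe gave -0.01 here (adjusted p = 0.98), and the dimmer Trib3 probes gave -0.69 (adjusted p = 0.11) and -1.74 (adjusted p = 0.011).

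The forskolin effect in shHDAC45 cells minus that in GFP cells at 2 h was 0.69 for Herpud1, -0.7 for Trib3 and -0.63 for Slc7a5. At 4 h it was 1.6 for Ddit4, 0.79 for Xbp1, 0.59 for Trib3, 0.56 for Mthfd2, 0.48 for Psat1 and -0.54 for Nupr1. A second Psat1 probe gave 0.5 at 4 h with an adjusted p of 0.14, and neither dimmer Trib3 probe was called at 2 h or 4 h.

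The change between 4 h and 2 h under DMSO, in shHDAC45 cells minus in GFP cells, was 1.56 for Slc7a11, 0.59 for Hsp90b1 and 0.47 for Xbp1, and it was -1.36 for Trib3, -1.07 for Sesn2 (a fitted value with no size, as its probe was below background in all GFP groups), -1.02 for Chac1 and -0.92 for Vldlr. This comparison was added after the data were seen.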

How the results depend on the processing

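Of 173 calls of members over all contrasts, 114 held under every alternative run for them. Setting forskolin against the DMSO arrays of the other time moved most. The ATF4-type median minus the ER median became -0.16 in GFP cells at 2 h (main 0.13), -0.27 in GFP cells at 4 h (main -0.53), -0.01 in shHDAC45 cells at 2 h (main -0.18) and -0.61 in shHDAC45 cells at 4 h (main -0.38), and forskolin at 4 h in shHDAC45 cells called 14 members (main 8). Signs turned for Vldlr (-0.68 at 2 h and 0.39 at 4 h) and Herpud1 (-0.36 at 4 h) in GFP cells, and in shHDAC45 cells for Sesn2 (0.03), Slc7a11 (-0.97) and Nupr1 (0.44) at 2 h and for Chac1 (-0.56), Sesn2 (-0.8) and Slc7a11 (0.51) at 4 h. The list difference in GFP cells at 4 h was -0.44 without background correction and -0.43 in the authors' normalized table.

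Forskolin in GFP cells at 2 h called 10 members after median scaling and 2 with only the compared arrays (main 6). The virus difference of the forskolin effect at 2 h called 5 without background correction, 1 with only the compared arrays, 6 with an intensity trend and robust prior and 5 with the replicate block (main 3). At 4 h it called 2 after median scaling, 3 without the detection filter and 2 with only the compared arrays (main 6). DMSO at 4 h against 2 h called 3 after median scaling and 8 with the replicate block in GFP cells (main 5), and 4 with only the compared arrays in shHDAC45 cells (main 8). The virus difference of that change called 11 without background correction and 11 with the replicate block (main 7). Arrays of the same letter deviated together, as all 28 pairs of groups correlated above 0 (0.0491 to 0.307) and 25 above 0.1. Since 3 fell short and no label says what the letters mark, the block was not used as the main fit. The block called Hspa5 with forskolin at 4 h in shHDAC45 cells (0.57, limma adjusted p = 0.0088). The main fit did not call it, but a fit of only the compared arrays did (adjusted p = 0.037). Slc3a2, called in no forskolin contrast of the main fit, was called higher with the block in GFP cells at 2 h (0.76, adjusted p = 0.025) and 4 h (0.83, 0.011). In shHDAC45 cells at 4 h Slc3a2 was called with the block (0.6, adjusted p = 0.047) and with only the compared arrays (0.041). The cause of these shifts was not tested.

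Leaving out each array in turn gave 2 to 7 called members for forskolin in GFP cells at 2 h (main 6) and 8 to 14 at 4 h (main 12), and 2 to 4 (main 4) and 4 to 8 (main 8) in shHDAC45 cells, where the 4 at 4 h came without DMSO array B. For shHDAC45 against GFP it gave 14 to 18 with DMSO at 2 h, 14 to 17 with DMSO at 4 h, 16 to 20 with forskolin at 2 h, 20 to 24 with forskolin at 4 h and 24 to 26 on average (main 17, 17, 17, 24 and 24). It gave 3 to 9 and 3 to 5 for DMSO over time in shHDAC45 and GFP cells, 5 to 7 for their difference, 4 to 6 and 7 to 11 for forskolin over time in shHDAC45 and GFP cells, and 0 to 4 and 2 to 4 for its difference between viruses at 2 h and 4 h. The list difference ranged over -0.2 to -0.07 and -0.46 to -0.3 in shHDAC45 cells and 0.13 to 0.27 and -0.66 to -0.51 in GFP cells at 2 h and 4 h, and over 0.2 to 0.31 for the knockdown. With 2 arrays per group, a fit without an array takes the spread of that group from the rest.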

Other observations

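Within groups, the array lettered A read above the array lettered B in 8 of 8 groups for Hspa5, by a mean of 0.55 on the log2 scale, and for Ddit4, by 0.27. It did so in 7 of 8 groups for Slc3a2 (0.66), Asns (0.2) and Phgdh (0.16). Array A read higher in only 1 group for Sdf2l1 (mean -0.26) and Xbp1 (-0.06). Thus 5 of the 30 members had A above B in at least 7 groups and 2 in at most 1 group. The same count was not made over all genes, so it is not known to be particular to the members. The labels do not say what the letters stand for.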
